A study of Rattus norvegicus with 30 samples.

Results

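The Cyp2c and Cyp2a subfamilies of cytochrome P450 were followed through 9 genes in rat liver RNA: Cyp2c6v1, Cyp2c7, Cyp2c11, Cyp2c13, Cyp2c22, Cyp2c23, Cyp2a1, Cyp2a2 and Cyp2a3. They were taken by name, as every non-control probe whose transcript maps to one of these symbols. No measured value entered that rule, but the genes were chosen with earlier results of these data known. This gave 11 probes of 30367 and 9 genes of 15170 named on the array. Cyp2c7 had 3 probes and each other gene had 1. All livers came from male animals fed for 7 days a diet with 0 ppm (control) or 1000 ppm phenobarbital (PB), a barbiturate that raises drug-metabolising enzymes. SD rats, the outbred Crl:CD(SD) stock, gave 4 arrays on each diet. Rats with a knockout of the constitutive androstane receptor (CAR KO rats), the nuclear receptor through which PB raises many such enzymes, also gave 4 on each diet. Chimeric mice, whose livers hold rat hepatocytes in a mouse host, gave 7 on each diet. The array carries rat probes, and the sources used here state neither the rat share of each chimeric liver nor the ages of the animals nor the deleted stretch of the CAR gene.

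Cytochromes P450 are heme enzymes of the endoplasmic reticulum that oxidise drugs, steroids and lipids with electrons from the reductase Por. In rat liver the Cyp2c and Cyp2a genes are known above all for their sex pattern: Cyp2c11, Cyp2c13 and Cyp2a2 are male-predominant steroid hydroxylases, Cyp2c7 and Cyp2a1 are higher in females, and Cyp2c12 is the female-specific member. That pattern is set by the rhythm of growth hormone, which is pulsatile in males and more continuous in females and acts through the receptor Ghr and the factor Stat5b. Cyp2c6v1 is found in both sexes and is a known PB-responsive gene. Cyp2c22 hydroxylates retinoic acid, Cyp2c23 makes epoxides of arachidonic acid, and Cyp2a3 is known from lung and nasal tissue.

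In the order of genes of the RefSeq rat assembly GRCr8, Cyp2a3, Cyp2a1 and Cyp2a2 follow each other with 0 genes between them. Cyp2c6v1 and Cyp2c7 have 1 annotated gene between them, and Cyp2c13 and Cyp2c22 have 2. RefSeq promoters were found for 7 of the 9 genes, all but Cyp2c6v1 and Cyp2a2. The 120 bases before the start are printed for 4 genes because the results turn on them: Cyp2c11 and Cyp2c13, which were lower together in CAR KO rats on PB, Cyp2c7, whose probes differed in chimeric mice, and Cyp2c22, which was lower in chimeric livers. The start is that of the promoter entry, and in Cyp2c7 and Cyp2c13 part of the stretch lies inside the annotated gene. Capitals mark TATAAA, the TATA box, and ATTGAT, read on either strand, the core bound by the factor Onecut1. Each reads 5′ to 3′ on the gene's strand, and the letters are GRCr8's: Cyp2c11 at chr1:246175096-246175215, plus strand; Cyp2c13 at chr1:248787189-248787308, minus strand; Cyp2c7 at chr1:247966274-247966393, plus strand; Cyp2c22 at chr1:248980768-248980887, minus strand.
Cyp2c11: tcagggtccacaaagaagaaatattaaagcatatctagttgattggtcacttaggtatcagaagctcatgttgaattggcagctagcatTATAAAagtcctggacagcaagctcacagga
Cyp2c13: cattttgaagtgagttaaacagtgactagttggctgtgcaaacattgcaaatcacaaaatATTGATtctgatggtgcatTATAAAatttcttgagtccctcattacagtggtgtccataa
Cyp2c7: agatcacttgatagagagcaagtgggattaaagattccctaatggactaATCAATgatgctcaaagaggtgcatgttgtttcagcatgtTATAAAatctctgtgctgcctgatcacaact
Cyp2c22: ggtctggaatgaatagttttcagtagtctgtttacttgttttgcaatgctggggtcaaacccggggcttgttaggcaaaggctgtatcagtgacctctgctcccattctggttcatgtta

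Each of 4 motifs was looked for on both strands in the 250 bases before the start. The TATA box letters stood 31 bases before the start in Cyp2c7 and Cyp2c11, 41 in Cyp2c13, 36 in Cyp2a1 and 52 in Cyp2a3, and in Cyp2c22 only at 197, outside the stretch shown. In all 6 of the 7 genes held TATAAA, against 12.9% of 33469 rat promoters. ATTGAT was found in Cyp2c7 (71 bases before the start) and Cyp2c13 (60 bases), against 7.1% of promoters. AGGTCA, the core bound by many nuclear receptors, was found in Cyp2c7, Cyp2c11 (123 bases) and Cyp2c22 (30 bases), against 14.1% of promoters. TTCNNNGAA, the Stat5 motif, was found in 0 of the 7 genes, against 7.67% of promoters. In Cyp2c7 the AGGTCA match, at 167 bases, shared a base with a further TATAAA match at 172. These matches describe the letters of the window and nothing more.

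A level is the log2 scanner signal less the 75th percentile of all probes on that array. A probe was tested where it was well above background on at least 75% of the arrays of a compared group, and a difference passed at an adjusted p under 0.05 (limma, adjusted over all probes tested). Errors of levels are SDs between arrays and errors of differences are standard errors. The 75th percentile signal was 413.8 to 568.3 on the 16 rat arrays and 197.5 to 317.9 on the 14 chimeric arrays. All 8 hepatocyte markers were well above background on every array of every group, with a summed level of 10.61 to 11.23. The summed level of 8 macrophage markers was 6.47 to 6.71 in SD rats and 4.66 to 5.78 in chimeric mice, where 1 of the 8 was above background on no array. The probe used for the CAR gene, Nr1i3, read 1.17 ± 0.495 in SD controls and 1.12 ± 0.299 in CAR KO controls (SD, n = 4 each). It was not lower in the knockout, and its place against the deleted part is unknown, so it does not check the labels. Each rat model lay on a slide of its own with 1 diet in each row, so model and slide, and diet and row, cannot be told apart among the rats. The chimeric arrays lay on other slides than the rats, so model and slide cannot be told apart between chimeric mice and SD rats either.

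Of the 9 genes, 8 were well above background on all 30 arrays, with a signal above at least 66.93% of the probes of every array for Cyp2c22 and at least 92.61% for the other 7. Cyp2a3 was the exception. It was well above background on 0 of 4 SD controls, 1 of 4 SD arrays on PB, 0 of 4 CAR KO controls, 1 of 4 CAR KO arrays on PB, 2 of 7 chimeric controls and 4 of 7 chimeric arrays on PB. It was not tested, and no fold is given for it. Of the lung and nasal markers, 2 of 5 were above background on all SD control arrays and 3 on none.

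**Figure D1:**
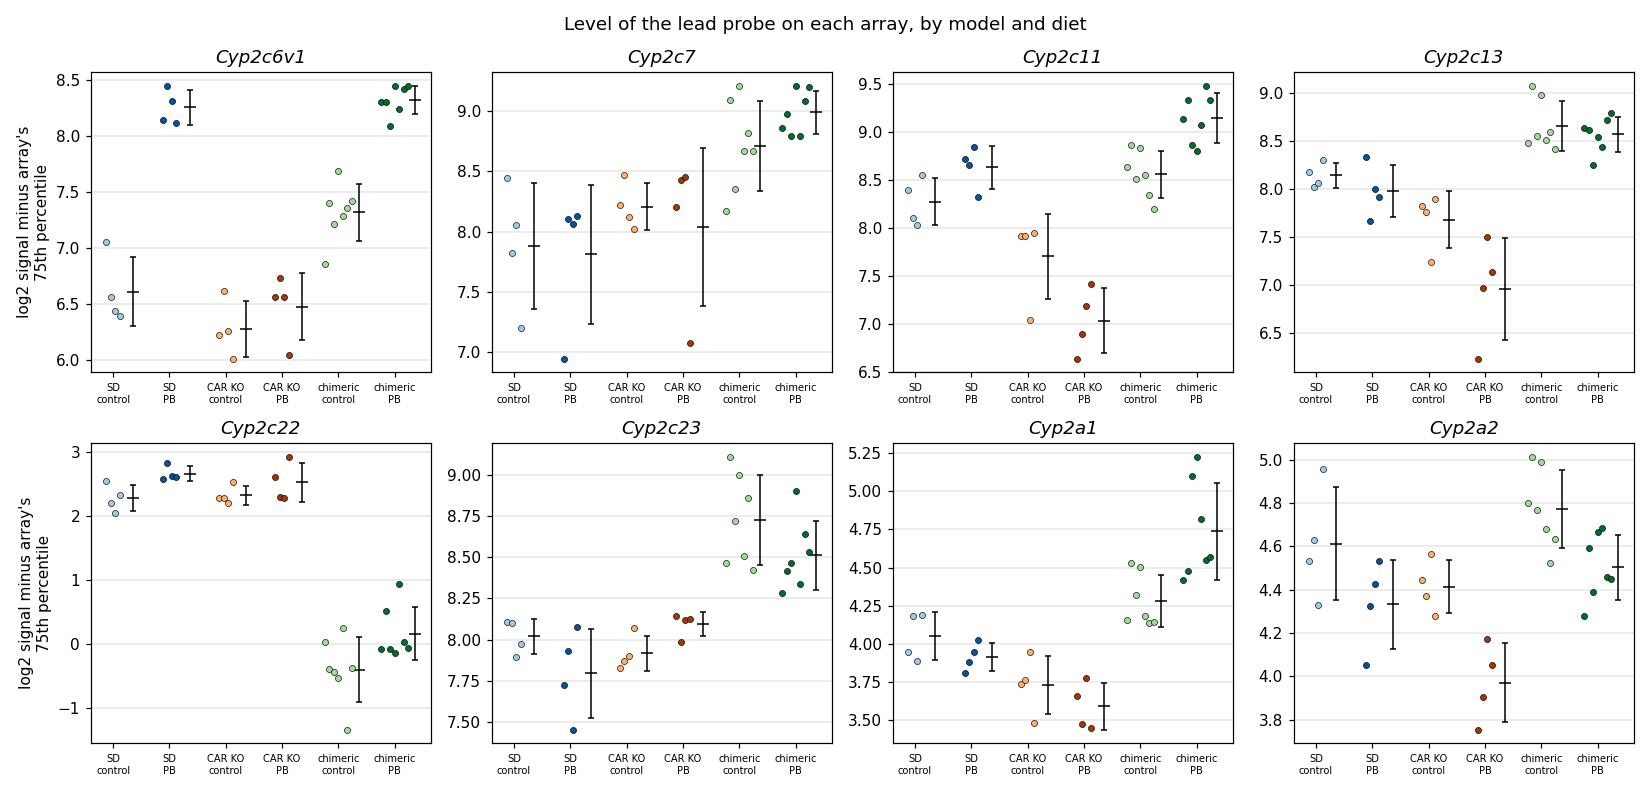
Level of the most highly read probe of 8 Cyp2c and Cyp2a genes on each array (log2 signal minus the array's 75th percentile), in SD rats, CAR KO rats and chimeric mice on control or PB diet. Points are arrays, and the bar beside them is the mean ± SD (n = 4, 4, 4, 4, 7 and 7). Cyp2c6v1 on PB sits at 8.12 to 8.45 in SD rats and 8.10 to 8.45 in chimeric mice, and at 6.05 to 6.74 in CAR KO rats.

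PB raised 1 of these genes in SD rats, Cyp2c6v1. It read 7.06, 6.56, 6.44 and 6.40 on the control arrays. On PB it read 8.14, 8.45, 8.32 and 8.12. Every PB array was above every control array. The gene rose 3.12-fold (log2 1.64 ± 0.173, adjusted p = 0.000105), where 4.14% of 19041 probes passed the test, 2.42% as higher and 1.72% as lower. Its rise passed under each of 12 other settings, with log2 values of 1.501 to 1.67, and with any 1 array left out.

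None of the other 7 genes tested passed in SD rats. The nearest by adjusted p was Cyp2c22. Cyp2c22, the retinoic acid hydroxylase, read 2.55, 2.21, 2.05 and 2.33 on control diet and 2.58, 2.84, 2.63 and 2.62 on PB. These groups did not overlap, as for 11.6% of all probes tested, but the difference of 0.38 ± 0.14 did not pass (adjusted p = 0.147). Cyp2c11 differed by 0.36 ± 0.214 (adjusted p = 0.372; 95% interval -0.10 to 0.82). Cyp2c13 (-0.16), Cyp2c23 (-0.22), Cyp2a1 (-0.14) and Cyp2a2 (-0.28) had log2 differences below 0 with adjusted p of at least 0.268. The median difference of the 8 genes was -0.10, beside -0.02 over all probes tested.

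A list of 12 P450 partners held electron and heme enzymes and also the epoxide hydrolase Ephx1, which is neither. Of these 12, 5 rose in SD rats and 0 fell, where 2.42% of all probes passed as higher and 1.72% as lower. Ephx1 rose by 2.01, Por by 1.57, the heme synthesis enzyme Alas1 by 1.41 and cytochrome b5, Cyb5a, by 0.73 on the log2 scale. Of 18 other Cyp2 genes tested, 4 rose and 1 fell. Cyp2b2 rose by 4.03 and Cyp2t1 fell by 0.42. Cyp2b21 and Cyp2g1 also passed, but 1 of 4 control arrays measured Cyp2b21 well above background and 0 of 4 measured Cyp2g1, so no fold is given. The medians of these lists were 0.32 for the partners and -0.12 for the other Cyp2 genes.

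In CAR KO rats 0 of the 8 genes tested passed for PB, where 0.153% of 19643 probes passed, 0.0458% as higher and 0.107% as lower. Without adjustment 3 of the 8 had a limma p under 0.05, as did 3129 of all 19643 probes tested. Cyp2c6v1 read 6.23, 6.62, 6.27 and 6.02 on control diet and 6.57, 6.74, 6.56 and 6.05 on PB. The groups overlapped, and the difference was 0.20 ± 0.174 (adjusted p = 0.621; 95% interval -0.17 to 0.57). The 3 genes with an unadjusted p under 0.05 were the male-predominant ones, all with values below 0: Cyp2c11 at -0.67 ± 0.215 (adjusted p = 0.165), Cyp2c13 at -0.72 ± 0.225 (adjusted p = 0.157) and Cyp2a2 at -0.44 ± 0.136 (adjusted p = 0.151). Cyp2a2 read 4.44, 4.37, 4.57 and 4.28 on control diet and 3.75, 3.90, 4.17 and 4.05 on PB, with no overlap, as for 10.5% of all probes tested. Of the partners, 0 of 12 passed, with a median of 0.05.

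The PB response of Cyp2c6v1 was smaller in CAR KO than in SD rats by 1.45 ± 0.246 (log2, adjusted p = 0.0168), a test in which 0.476% of 19948 probes passed, 0.0852% as higher and 0.391% as lower. It passed under each of the 11 other settings and with any 1 array left out. For Cyp2c11 the responses differed by -1.03 ± 0.304 (adjusted p = 0.171). Without the third CAR KO control array, where Cyp2c11 was lowest, that difference was -1.25 with adjusted p = 0.0465. The other 6 genes gave differences of responses between -0.56 (Cyp2c13) and 0.40 (Cyp2c23), each with adjusted p of at least 0.303. The Cyp2a1 responses differed by -0.01 ± 0.152 (95% interval -0.33 to 0.32).

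**Figure D2:**
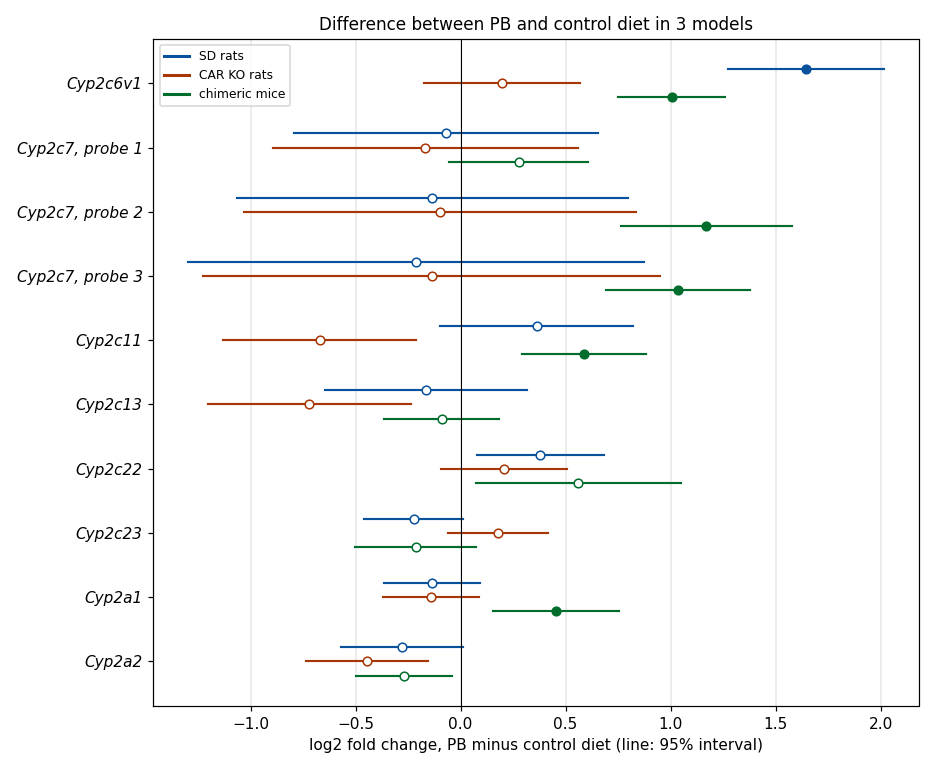
Log2 fold change between PB and control diet for the 10 probes tested, in SD rats, CAR KO rats and chimeric mice. Lines are 95% intervals and filled points passed the test. Cyp2c6v1 passed in SD rats (1.64) and chimeric mice (1.004) and stood at 0.20 in CAR KO rats. Probes 1, 2 and 3 of Cyp2c7 gave 0.28, 1.17 and 1.04 in chimeric mice.

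In chimeric mice PB raised Cyp2c6v1, Cyp2c11 and Cyp2a1, and 2 of the 3 probes of Cyp2c7. In all 5 of 10 probes passed, each higher, where 41.7% of 15999 probes passed, 19.2% as higher and 22.5% as lower. Cyp2c6v1 read 6.86 to 7.70 on control diet (median 7.36) and 8.10 to 8.45 on PB (median 8.31), with no overlap, as for 12.3% of all probes tested. It rose 2.01-fold (log2 1.004 ± 0.119, adjusted p = 2.75e-05). Cyp2c11 read 8.19 to 8.86 (median 8.55) and 8.80 to 9.48 (median 9.14) and rose by 0.59 ± 0.138 (adjusted p = 0.00322). Cyp2a1, a testosterone hydroxylase, read 4.14 to 4.53 (median 4.18) and 4.42 to 5.23 (median 4.57) and rose by 0.46 ± 0.141 (adjusted p = 0.0170). In these last 2 genes the lowest PB arrays lay within the control range.

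The 7 chimeric controls shared a slide with the first PB array, and the other 6 PB arrays lay on a second slide. With slide as a block, which rests the response on that 1 PB array, 0 of the 10 probes passed and 4 had an unadjusted limma p under 0.05. Cyp2c6v1 then stood at 0.99 (adjusted p = 0.0707), Cyp2c11 at 0.58 (adjusted p = 0.502) and Cyp2a1 at 0.14 (adjusted p = 0.949). Within the shared slide the first PB array exceeded the control mean by 0.99 for Cyp2c6v1, by 0.58 for Cyp2c11 and by 0.14 for Cyp2a1. The other 6 exceeded it by 1.01, 0.59 and 0.51. For Cyp2a1 the excess on the shared slide was thus the smaller one, while for the other 2 genes both slides gave nearly the same value.

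Cyp2c22 (0.56 ± 0.229, adjusted p = 0.0616) and Cyp2a2 (-0.27 ± 0.107, adjusted p = 0.0545) lay near the threshold in chimeric mice and passed under some settings and not others. Under quantile normalization 8 probes passed, 6 higher and 2 lower, beside 7080 of all 15999 tested (3602 higher and 3478 lower). Cyp2c13 (-0.09 ± 0.129) and Cyp2c23 (-0.21 ± 0.136) did not pass. Of the partners 10 of 12 rose and 0 fell, led by Ephx1 (3.12) and Por (2.97), with a median of 0.81. Over all probes tested 19.2% passed as higher and 22.5% as lower. Macrophage markers were lower on PB in 4 of 6 tested, and their part in these values was not tested.

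The difference between chimeric and SD responses passed for Cyp2c6v1, Cyp2a1 and 1 probe of Cyp2c7, where 17.9% of 19311 probes passed, 6.12% as higher and 11.8% as lower. The Cyp2c6v1 response was smaller in chimeric mice by 0.64 ± 0.208 (log2, adjusted p = 0.0318) and the chimeric control mean was 7.32 against 6.61 in SD rats, with 8.33 and 8.26 on PB. The Cyp2a1 response was larger by 0.59 ± 0.191 (adjusted p = 0.0313). The Cyp2c7 difference, on probe 2, was 1.31 ± 0.458 (adjusted p = 0.0471). None of the 3 passed with slide as a block, when 1 of 10 probes had an unadjusted limma p under 0.05, or with arrays centred on hepatocyte markers. None passed either without SD control replicate 2, SD PB replicate 2 or chimeric PB replicate 3, and 1 passed without SD control replicate 3 or SD PB replicate 1. With 1 array left out, Cyp2c6v1 lost its call in 6 of 22 fits, Cyp2a1 in 5 and Cyp2c7 probe 2 in 15. Cyp2c6v1 also missed the threshold under quantile normalization (-0.40, adjusted p = 0.122), median centring (-0.36, adjusted p = 0.248) and array weights (-0.50, adjusted p = 0.0862).

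Cyp2c7, the female-predominant retinoid and steroid hydroxylase, is read by 3 probes of 1 transcript: probe 1 is A_43_P13939, probe 2 A_64_P000452 and probe 3 A_64_P066206. Over the 16 rat arrays their levels correlated at 0.975 to 0.997 (Pearson, a description over arrays that share their normalization). Over the 14 chimeric arrays probes 2 and 3 correlated at 0.985, but probe 1 with them at 0.802 and 0.738. In rats all 3 gave PB differences between -0.21 and -0.07, with adjusted p of at least 0.852. The first SD array on PB read 6.95 on probe 1 against 8.07 to 8.12 on the other 3, and probes 2 and 3 were low on it too. Without that array the SD differences were 0.22, 0.21 and 0.15 on probes 1, 2 and 3, and none passed. All 3 also lay above 0 without SD control replicate 1, the highest control on each probe. Their direction thus turned on either of these arrays. In CAR KO rats the direction turned on the fourth array on PB: without it the differences were 0.15, 0.34 and 0.38, and none passed (adjusted p of at least 0.744). Leaving out CAR KO control replicate 2 also put probes 2 and 3 above 0, at 0.06 and 0.05.

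In chimeric mice the probes parted. Probe 1 read 8.17 to 9.21 on control diet (median 8.67) and 8.79 to 9.21 on PB (median 8.98), and its difference of 0.28 ± 0.156 did not pass (adjusted p = 0.169). Probe 2 read 6.55 to 7.85 (median 7.39) and 8.17 to 8.78 (median 8.42), with no overlap, and rose 2.25-fold (1.17 ± 0.192, adjusted p = 0.000241). Probe 3 read 3.84 to 4.79 (median 4.45) and 5.12 to 5.59 (median 5.48), with no overlap, and rose 2.05-fold (1.04 ± 0.161, adjusted p = 0.000168). With slide as a block probes 2 and 3 stood at 0.93 and 0.97 (adjusted p 0.402 and 0.259).

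Against SD controls, the chimeric controls differed by 0.83 ± 0.254 on probe 1 (adjusted p = 0.00483), by -0.01 ± 0.323 on probe 2 and by -1.12 ± 0.352 on probe 3 (adjusted p = 0.00594). These calls depended on the scaling. Under quantile normalization probe 1 no longer passed (0.45, adjusted p = 0.0601) and probe 2 passed as lower (-0.69, adjusted p = 0.0328). Probe 3 no longer passed under median centring (-0.72, adjusted p = 0.0764) or with arrays centred on hepatocyte markers (-0.26, adjusted p = 0.675). The mean signal of probe 1 was 116300 in chimeric controls and 128400 on PB, that of probe 2 was 42300 and 86830, and that of probe 3 was 5799 and 10840. No spot was marked saturated on any array. Where each probe lies in the transcript was not analysed here, and whether close relatives of the gene or mouse RNA bind to any of them was not tested. A level of Cyp2c7 in chimeric livers against rat livers therefore depends on the probe read.

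**Figure D3:**
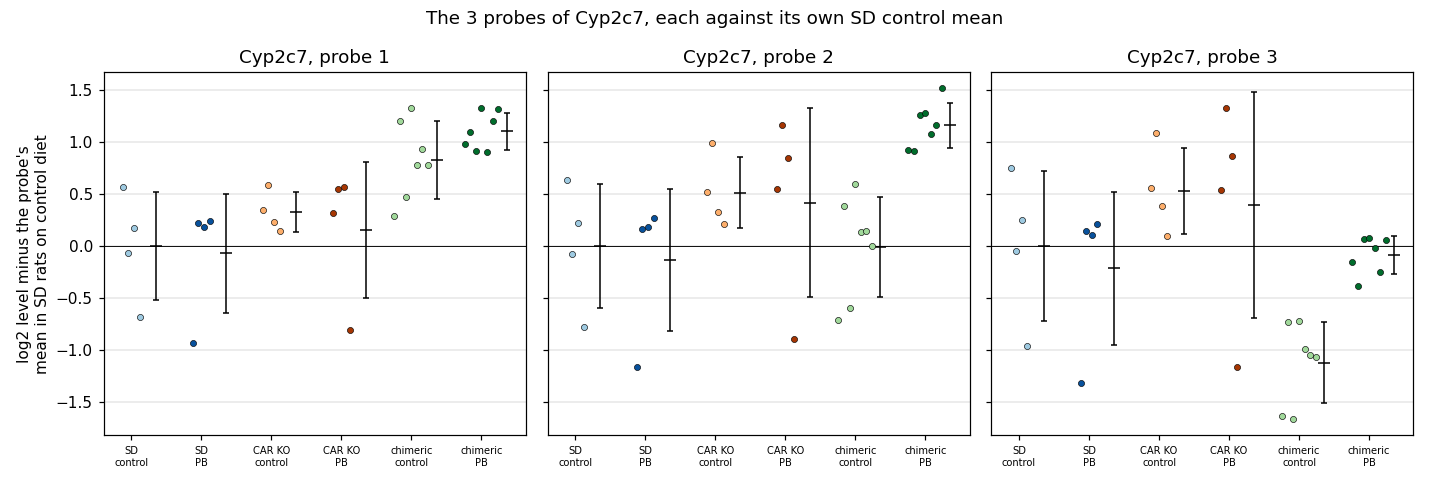
Each of the 3 Cyp2c7 probes on every array, as log2 level minus that probe's mean on SD controls. Points are arrays and bars are mean ± SD. Chimeric controls lie 0.83 above the SD control mean on probe 1, at -0.01 on probe 2 and at -1.12 on probe 3. The first SD array on PB is the low point of its group on all 3.

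The male-predominant genes Cyp2c11 and Cyp2c13 were lower in CAR KO than in SD rats on PB, and so was Cyp2c6v1. Of the 8 genes tested on that diet, 5 were lower and 1 higher, where 41.6% of 18540 probes passed, 25.6% as lower and 16% as higher. Cyp2c11 read 8.71, 8.65, 8.85 and 8.32 in SD rats and 6.64, 6.89, 7.19 and 7.41 in CAR KO rats. The CAR KO arrays were all below the SD arrays, and the gene was 3.03-fold lower (-1.60 ± 0.214, adjusted p = 5.06e-05). Cyp2c13 read 8.33, 7.67, 8.01 and 7.92 in SD rats and 6.24, 6.97, 7.50 and 7.14 in CAR KO rats, again with no overlap, and was 2.03-fold lower (-1.02 ± 0.224, adjusted p = 0.00236). Cyp2c6v1 was 3.43-fold lower (-1.78 ± 0.173, adjusted p = 2.72e-06). All 3 passed under each of 12 other settings.

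The other 3 calls on PB diet were small. Cyp2a1 was lower by 0.32 ± 0.107 (log2, adjusted p = 0.0245), Cyp2a2 lower by 0.36 ± 0.135 (adjusted p = 0.0435) and Cyp2c23 higher by 0.30 ± 0.11 (adjusted p = 0.0419). All 3 were lost without the third SD array on PB, which left 3 calls of the 6, and with the spread taken from all 30 arrays. They were lost too without the fourth CAR KO array on PB (adjusted p of 0.0705, 0.0547 and 0.07995), where probes 2 and 3 of Cyp2c7 passed as higher instead, by 0.99 (adjusted p = 0.0476) and 1.12 (adjusted p = 0.0497). With any 1 array left out, 3 to 5 probes passed. In 4 of the 8 genes the groups did not overlap, as for 38.5% of all probes tested. The median difference of the 8 genes was -0.34, beside -0.07 over all probes.

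On control diet Cyp2a1 alone passed between the models, lower in CAR KO rats by 0.32 ± 0.107 (log2, adjusted p = 0.0335), where 33.8% of 19851 probes passed, 20.2% as lower and 13.7% as higher. It read 3.94, 4.18, 3.89 and 4.19 in SD rats and 3.73, 3.76, 3.95 and 3.48 in CAR KO rats, so the groups overlapped. Leaving out SD control replicate 2 or 4 ended that call and left 0 genes. So did leaving out CAR KO control replicate 1, 2 or 4 (limma, adjusted p up to 0.105). With all arrays 2 genes had an unadjusted limma p under 0.05, as did 8650 of all 19851 probes. Cyp2c11 read 8.39, 8.10, 8.03 and 8.55 in SD rats and 7.91, 7.91, 7.04 and 7.94 in CAR KO rats. It did not overlap, as for 34.1% of all probes, but did not pass (-0.57 ± 0.215, adjusted p = 0.0552), except with normexp background correction (adjusted p = 0.0393) or median centring (adjusted p = 0.0428). Cyp2c13 did not overlap either (-0.46 ± 0.225, adjusted p = 0.130). With the spread taken from the compared groups alone, Cyp2c13 passed (adjusted p = 0.0437) and Cyp2a1 did not (adjusted p = 0.0702).

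On control diet 13.7% of all probes tested passed as higher in CAR KO than in SD rats and 20.2% as lower. Of 8 listed female-predominant genes tested, 4 were higher and 0 lower, with a median of 1.12. A1bg, a plasma glycoprotein gene, was among them, but 2 of 4 SD control arrays measured it well above background. The prolactin receptor Prlr was higher by 2.30, Cyp2c12 by 1.46 and the steroid sulfotransferase Sult2a1 by 0.93. On PB diet 6 of 8 were higher and 0 lower, with a median of 2.41, where 16% of all probes passed as higher and 25.6% as lower. Of 8 male-predominant genes outside the 9, 3 were lower and 1 higher on control diet, and 6 lower and 0 higher on PB diet. Cyp3a2, a male-predominant P450, was lower by 1.16 on control diet and by 2.66 on PB diet.

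Cyp2c12 read 3.31, 2.81, 1.23 and 3.29 in SD controls and 3.36, 3.54, 5.17 and 4.41 in CAR KO controls. On PB it read 2.02, 1.52, 0.53 and 1.51 in SD rats and 6.07, 5.59, 4.33 and 5.46 in CAR KO rats. The groups on PB were apart by 3.97 ± 0.526 (adjusted p = 4.77e-05). The third CAR KO control array, lowest in its group for Cyp2c11 and Cyp2c13, was highest for Cyp2c12. Its PB response passed in neither model, at -1.26 ± 0.527 in SD rats (adjusted p = 0.199) and 1.24 ± 0.528 in CAR KO rats (adjusted p = 0.271), and their difference did not pass (adjusted p = 0.173).

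Of 16 growth hormone signalling genes and P450 regulators, 2 were higher and 1 lower in CAR KO rats on control diet, and 5 higher and 0 lower on PB diet. Among all probes tested, 13.7% passed as higher and 20.2% as lower on control diet, and 16% and 25.6% on PB diet. On control diet the liver transcription factor Foxa1 was higher by 0.43, and the kinase Jak2 was lower by 0.26. Onecut1, the factor that binds ATTGAT, was higher on PB diet by 2.59 ± 0.959 (adjusted p = 0.0425) and stood at 1.75 ± 0.964 on control diet (adjusted p = 0.179). It was chosen for mention after its values were seen. Stat5b differed by -0.10 and 0.29 on the 2 diets and did not pass. In CAR KO rats the summed macrophage markers were 5.64 to 6.54 and the hepatocyte markers 10.84 to 11.07, and 3 of 8 hepatocyte markers were lower on control diet. Their part in these differences was not tested.

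**Figure D4:**
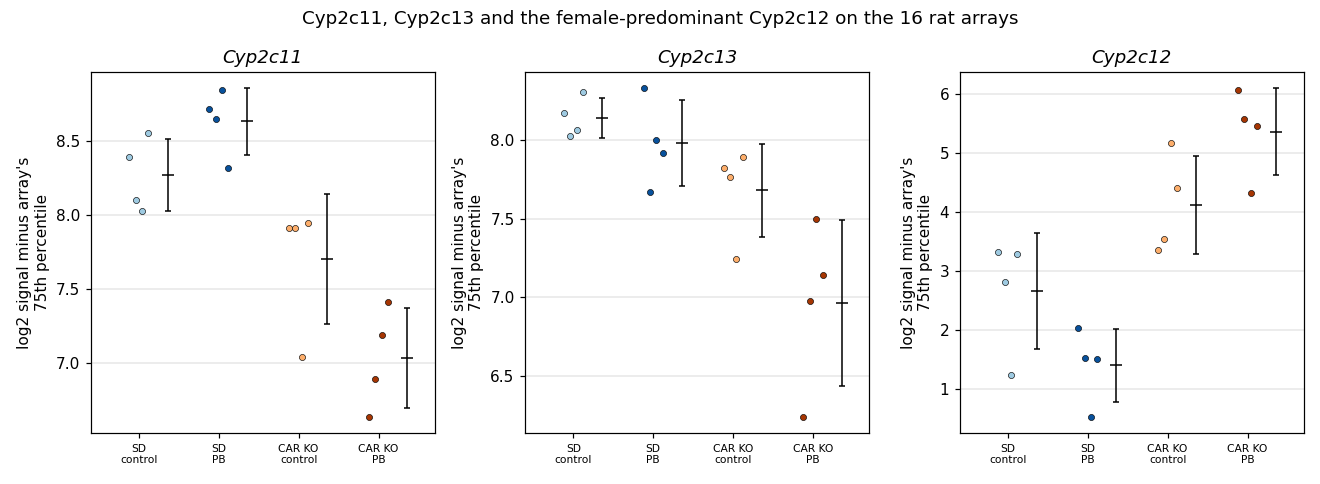
Levels of Cyp2c11, Cyp2c13 and the female-predominant Cyp2c12 on the 16 rat arrays (log2 signal minus the array's 75th percentile). Points are arrays and bars are mean ± SD (n = 4 each). On PB, CAR KO arrays lie below SD arrays for Cyp2c11 (6.64 to 7.41 against 8.32 to 8.85) and above them for Cyp2c12 (4.33 to 6.07 against 0.53 to 2.02).

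Chimeric livers differed from SD livers most in Cyp2c22. It read 2.05 to 2.55 in SD controls and -1.34 to 0.25 in chimeric controls, 6.41-fold lower (-2.68 ± 0.217, adjusted p = 3.21e-11), where 74.5% of 19209 probes passed, 37.5% as lower and 37% as higher. On PB it was 5.66-fold lower (-2.50 ± 0.216, adjusted p = 1.02e-10), where 72.6% of 17661 probes passed, 35.1% as lower and 37.4% as higher. Under 12 other settings the control-diet value ran from -2.83 to -1.82 and always passed. In whole liver RNA, fewer cells of a type and less RNA per cell cannot be told apart. Nor can model and slide, as no slide held both chimeric and SD arrays. All 8 hepatocyte markers were measured in both models, 5 of them lower in chimeric controls, with a median of -0.59.

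Another 4 genes were higher in chimeric than in SD controls on the 75th percentile scale, where 37% of all 19209 probes passed as higher. Cyp2c23, the arachidonic acid epoxygenase, read 7.89 to 8.11 in SD rats and 8.42 to 9.11 in chimeric mice, with no overlap, as for 60.7% of all probes tested, and was higher by 0.71 ± 0.132 (adjusted p = 3.31e-05). Cyp2c6v1 was higher by 0.71 ± 0.147 (adjusted p = 0.000117), but stood at -0.0018 under quantile normalization (adjusted p = 0.991). Cyp2c13 was higher by 0.52 ± 0.178 (adjusted p = 0.0114), but did not pass under quantile normalization (0.12, adjusted p = 0.512) or with array weights (adjusted p = 0.0730). The other one was Cyp2c7 on its first probe, which did not pass under quantile normalization, as given above. Cyp2c11 (0.29 ± 0.179, adjusted p = 0.147), Cyp2a1 (0.23 ± 0.135) and Cyp2a2 (0.16 ± 0.121) did not pass. The direction of these 3 depended on the scaling. Quantile normalization put them at -0.06, -0.26 and -0.38, and Cyp2a1 and Cyp2a2 then passed as lower (adjusted p = 0.0365 and 0.00325). Median centring put them at 0.69, 0.63 and 0.56, and centring on hepatocyte markers at 1.15, 1.09 and 1.02, and all 3 then passed as higher (adjusted p of at most 0.0261).

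On PB diet 5 of the 8 genes, with Cyp2c7 taken on probe 1, were higher in chimeric than SD livers and 1 was lower. Of all 17661 probes tested, 72.6% passed, 37.4% as higher and 35.1% as lower. Cyp2a1 was 1.77-fold higher (0.82 ± 0.135, adjusted p = 5.01e-06), with no overlap, as for 53.8% of all probes. Cyp2c7 on probe 1 was higher by 1.18, Cyp2c23 by 0.71, Cyp2c13 by 0.59 and Cyp2c11 by 0.51, each with an adjusted p of at most 0.0121. The other Cyp2c7 probes were split on this diet. A_64_P000452 was higher by 1.30 (adjusted p = 0.000823), while A_64_P066206 overlapped at 0.13 and did not pass (adjusted p = 0.751). The call of Cyp2c7 as higher therefore depended on the probe read. Under quantile normalization Cyp2c11, Cyp2c13 and Cyp2a1 no longer passed (0.31, 0.14 and 0.22), and Cyp2c11 did not without SD PB replicate 4 (adjusted p = 0.0637) or with arrays centred on hepatocyte markers (adjusted p = 0.0516). Cyp2c6v1 did not differ detectably on PB (0.07 ± 0.146, 95% interval -0.23 to 0.37), but its direction depended on the scaling: it was lower under quantile normalization (-0.41, adjusted p = 0.00681) and higher under median centring (0.75, adjusted p = 0.000259). So did that of Cyp2a2, at 0.17 (adjusted p = 0.201), -0.44 under quantile normalization (adjusted p = 0.000836) and 0.85 under median centring (adjusted p = 8e-06).

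**Figure D5:**
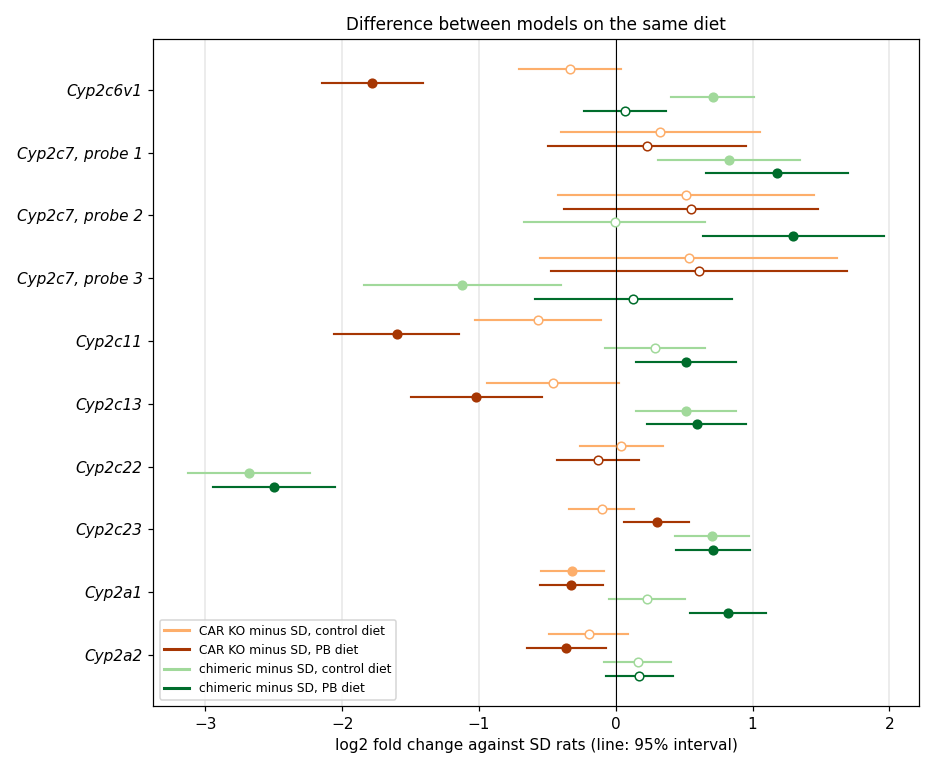
Log2 difference from SD rats on the same diet for CAR KO rats and chimeric mice, for the 10 probes tested. Lines are 95% intervals and filled points passed the test. On PB, Cyp2c6v1 (-1.78), Cyp2c11 (-1.60) and Cyp2c13 (-1.02) are lower in CAR KO rats, and Cyp2c22 is lower in chimeric mice on both diets (-2.68 and -2.50).

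Cyp2c12 was lower in chimeric than SD controls by 2.93 and Cyp2b2 by 2.18, while Cyp2j4 was higher by 2.10 and Cyp2e1 by 1.48. Over all 19209 probes tested on control diet, 74.5% passed, 37% as higher and 37.5% as lower. Of the other Cyp2 genes 7 were higher and 6 lower of 16. Female-predominant genes gave 2 higher and 2 lower of 6, and male-predominant genes 3 higher and 3 lower of 8. Of the growth hormone genes and regulators 3 were higher and 7 lower of 16, among them Jak2 (-1.80), Stat5b (-1.37) and the IGF carrier Igfals (-1.29), while Cebpb was higher (1.53). Of nuclear receptors 2 were higher and 2 lower of 10. In CAR KO against SD rats on control diet, 33.8% of 19851 probes passed, 13.7% as higher and 20.2% as lower. There 1 nuclear receptor was higher and 2 lower of 11. The glucocorticoid receptor Nr3c1 stood at 0.74 and the aryl hydrocarbon receptor Ahr at -1.01.

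Within groups, some of these genes moved together from array to array. After each group's mean was taken off, Cyp2c6v1 and Cyp2c7 correlated at 0.7501 over 16 rat arrays and at 0.899 over 14 chimeric arrays. Cyp2c11 and Cyp2c13 correlated at 0.728 and 0.769, and Cyp2a1 with Cyp2a2 at 0.672 in rats and 0.566 in chimeric mice. Other pairs came near these values in chimeric mice, such as Cyp2c7 with Cyp2c13 (0.763) and with Cyp2c23 (0.749). The median over the 28 pairs of genes was -0.07 in rats and 0.34 in chimeric mice. These are descriptions, and the arrays share their scaling.

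Over the 16 rat arrays, group differences included, the genes of 9227 compared whose level followed Cyp2c6v1 most closely were the glucuronosyltransferase Ugt2b37 (Pearson r = 0.955) and the stress gene Gadd45b (0.951). Cyp2c11 was closest to Eif6 (0.951) and Tmem150a (0.939), and Cyp2c13 to Prss27 (0.933) and Sult1c3 (0.928). Cyp2a1 was closest to Klhl25 (0.939) and Srr (0.894), and Cyp2a2 to Eci2 (0.933) and Rinl (0.849). Cyp2c23 was closest to Neu3 (0.873) and Cnep1r1 (0.847). Cyp2c7 had no gene above 0.802 (Slc1a7, then Rpl19 at 0.732), and Cyp2c22 none above 0.746 (Pgp, then Zfyve26 at 0.732).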

How the data were processed

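Liver RNA was labelled with Cy3 and read on 1-colour Agilent rat arrays of 62976 spots, 1 per sample, 30 in all. Per the file headers, Agilent Feature Extraction made the intensity values: a processed signal, and median and local background signals for each spot. The authors' deposited series matrix holds log2 values that correlated at 1 with log2 of the processed signal of the same array. What was subtracted from each array there is not known, and it served only as an alternative.

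From the scanner files, 4259 control spots and spots marked as outliers were left out and spots of a probe averaged. Levels are log2 processed signal less the 75th percentile on that array. Groups and replicate numbers came from the sample titles, and gene names from RefSeq accessions of assembly GRCr8 (18004 of 30367 probes). The files' grid names rn4 on the rat arrays, so no gene coordinates are given beyond the RefSeq promoters. Tests used limma 3.58.1 in R 4.3.3 (tables were handled with the data.table package, version 1.17.8), Benjamini-Hochberg over all probes tested. Rat comparisons used the 16 rat arrays, the chimeric PB response the 14 chimeric arrays, and chimeric against SD all 30. A simulation with 200 changed probes recovered 85% of log2 changes of 1 and 95% of changes of 2 in the SD comparison, and 77% and 96% in the chimeric one.

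All probes of the 9 genes are named. Of the gene lists, the genes named were at most 4 per list and comparison, taken by size of change among those past the test in the SD response, CAR KO against SD or chimeric against SD on control diet, plus the 2 closest genes by correlation. Genes were followed by name to the other comparisons. The members and lists were chosen with earlier results of these data known. Alternatives were other background correction, normalization, filters, spreads, weights, fits, blocks and each array left out. The files hold no mean signal, so background correction (offset 50) was run on median signals, chosen after seeing the data. The number of arrays and brightness over background limit precision.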

Additional observations from a re-analysis of the deposited data

Results flagged for a closer look

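Of 66 groups of values checked, 6 held 1 array set apart from the rest, and chance alone sets apart about 1 in 20. The first SD array on PB was low on the 3 probes of Cyp2c7, at 6.95 (others 8.07 to 8.12), 6.10 (others 7.42 to 7.53) and 4.19 (others 5.61 to 5.72), and as these read 1 transcript they count as 1 event. The third CAR KO control read 7.04 for Cyp2c11 (others 7.91 to 7.94). The second CAR KO array on PB read 7.99 for Cyp2c23 (others 8.12 to 8.14). The third SD array on PB read -4.15 for Cyp2a3 (others -6.75 to -6.61), and it was the single array of that group well above background.

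The PB response differed between models, by a test of the difference itself, in 4 cases. Against SD rats, the Cyp2c6v1 response differed by -1.45 in CAR KO rats and by -0.64 in chimeric mice (log2 differences of responses). In chimeric mice that of Cyp2c7 probe 2 differed by 1.31 and that of Cyp2a1 by 0.59. No chimeric case passed with arrays centred on hepatocyte markers. With 1 array left out, the chimeric call was lost in 6 of 22 fits for Cyp2c6v1, 5 for Cyp2a1 and 15 for Cyp2c7 probe 2.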

How the results depend on the processing

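Of the values of single probes recomputed under other settings, 958 kept their direction and their side of the threshold. Another 43 lost a call, 30 gained one, 26 moved (changed sign with no call in either fit) and 5 reversed. With 1 array left out, 942 stayed so, 47 lost a call, 9 gained one, 62 moved and 0 called values reversed, though some that passed no test changed sign. All 5 reversals came from quantile normalization of chimeric against SD livers: Cyp2c6v1 (-0.0018 on control diet, -0.41 on PB), Cyp2a2 (-0.38 and -0.44) and Cyp2a1 (-0.26 on control diet). The count of Cyp2c and Cyp2a probes that passed moved as follows. For CAR KO against SD on control diet (main 1) it was 2 with normexp or median centring and 0 without a filter, with the replicate block or all 30 arrays in the fit. On PB diet (main 6) it was 3 with all 30 arrays. For the chimeric PB response (main 5) it was 8 with quantile normalization, 3 with 1 probe per symbol and 0 with slide as a block, and for chimeric against SD responses (main 3) 0 with slide as a block and 0 with hepatocyte centring. With 1 array left out the counts ran from 1 to 1 (SD response), 0 to 0 (CAR KO response), 1 to 2 (their difference), 0 to 1 and 3 to 5 (CAR KO against SD, control and PB diet), 5 to 6 (chimeric response), 6 to 6 and 6 to 7 (chimeric against SD) and 0 to 3 (their responses).

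Over all probes, the SD response (788) had 4035 calls with no filter, 202 with only its own groups in the fit and 222 with all 30 arrays, and 436 to 749 with 1 array left out (436 without SD PB replicate 3, 494 and 522 without SD control replicates 1 and 4). The CAR KO response (30) had 18 with quantile normalization, 1948 with no filter, 18 with the stricter filter, 231 with array weights, 0 with only its own groups, and 8 to 42 with 1 array left out (12 and 15 without CAR KO control replicates 1 and 4, 8 and 11 without CAR KO PB replicates 2 and 4). Their difference had 42 with all 30 arrays and 65 to 113 with 1 left out. CAR KO against SD had 2264 on control diet and 3223 on PB diet with all 30 arrays, and 5436 to 6200 and 6928 to 7229 with 1 left out. The chimeric response had 170 with slide as a block and 6030 to 7319 with 1 left out. Chimeric against SD had 13425 to 14406 on control diet and 11938 to 13066 on PB diet with 1 left out, and 8089 on PB diet with hepatocyte centring. Their responses had 6960 with array weights, 34 with slide as a block, 482 with hepatocyte centring, and 2737 to 4787 with 1 left out.

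Scaling moved the median of all probes by over 0.1 in chimeric comparisons: by 0.28 in the chimeric response and 0.28 in the difference of responses (median centring), by 0.40, 0.26 and 0.86 on control diet and 0.68, 0.25 and 0.44 on PB diet (median centring, normexp, hepatocyte centring), and by -0.42 in the difference of responses (hepatocyte centring). Shares of higher calls moved from 46.07% to 71.99% (chimeric response, median centring), from 49.69% to 69.02%, 66.51% and 82.56% (control diet, normexp, median and hepatocyte centring), from 51.59% to 69.79%, 77.82% and 66.93% (PB diet, same order), from 34.17% to 68.91% and 0.622% (responses, median and hepatocyte centring), from 40.4% to 25.54% (CAR KO against SD, control diet, normexp), from 30% to 41.86% and 57.58% (CAR KO response, normexp and median centring) and from 17.89% to 28.77% (difference of rat responses, median centring). The cause was not tested.

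Same-numbered arrays correlated at -0.21 to 0.78 between chimeric diets and at -0.19 to 0.08 between rat diets. Those that correlated best with their own number were 6 of 14 chimeric arrays and 2 of 8 of each rat model. Chimeric replicates 4 to 7 correlated at 0.23 to 0.78, and replicates 1 to 3 at -0.21 to 0.06. The main fits did not pair arrays by number, and whether the numbers pair the chimeric samples is not settled. With the replicate block 1 probe passed in the SD response, beside 612 of all 19041 tested, and 0 in CAR KO rats, beside 21 of 19643. In CAR KO against SD 0 passed on control diet, beside 6345 of 19851, and 6 on PB diet, beside 7454 of 18540. In the chimeric response 7 passed, beside 7671 of 15999.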
